A study of Mus musculus with 2 samples.

Results

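The E2F and Rb family genes set how strongly a cell transcribes its DNA replication programme, and 10 of them were examined here in mouse bone marrow after irradiation: E2f1, E2f2, E2f3, E2f4, E2f5, E2f6, E2f8, Rb1, Rbl1 and Rbl2. They were found by symbol among 16390 genes named on the array platform. Each of the 10 had 1 probe, and 9 had a ratio on both arrays. E2f8 had none on either array.

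The RNA came from bone marrow stromal cells of C57BL/6 mice taken 1 day or 3 days after a 9.5 Gy dose to the whole body (total body irradiation), set against the same kind of cells from mice that were not irradiated. Each time point was measured on 1 two-channel array, with irradiated RNA in Cy3 and unirradiated RNA in Cy5, and no array with the dyes exchanged was used here. The design text counts 6 mice without saying whether RNA was pooled or which mice served which group. No source used here describes how stromal cells were parted from blood-forming cells.

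E2F proteins bind DNA as dimers with a DP partner. E2F1, E2F2 and E2F3 are known as activators of S-phase genes, E2F4 and E2F5 act mainly as repressors together with the pocket proteins, E2F6 represses through Polycomb proteins without a pocket protein, and E2F8 is an atypical repressor that needs no DP partner. The pocket proteins are the retinoblastoma protein, encoded by Rb1, and its relatives encoded by Rbl1 and Rbl2. Cyclin-dependent kinases phosphorylate them and free the E2Fs, while the kinase inhibitor encoded by the p53 target Cdkn1a prevents this. In quiescent cells E2F4 or E2F5, a DP protein, a pocket protein of the Rbl type and the MuvB proteins form the DREAM complex, which keeps cell cycle genes off. In mice, loss of E2f4 or of E2f2 disturbs the maturation of red cells.

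The values are log2 ratios of the 2 channels with the median gene of each array at 0, so a value of 1 is a 2-fold difference. Which channel was divided by which is not in the labels, and the order of the titles alone would put unirradiated RNA on top. A positive value is taken here to mean more transcript in irradiated RNA, a likely reading that the labels leave unsettled. It rests on a list of p53 targets, genes that radiation is known to induce, whose median was 1.57 at day 1, when mitotic genes had a median of 0.79, and 1.12 at day 3, when they had -3.10. Were the channels divided in the opposite order, each "higher" would become "lower". Since each time point was hybridised once, no replicate error exists and no test was made. The spread between different probes of the same gene on 1 array had an SD of 0.76 (log2, 85 genes) at day 1 and 0.58 (116 genes) at day 3, and it leaves out differences between mice. The deposited values are ratios without intensities, so the levels of the family genes relative to each other are unknown.

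Blood cell genes differed strongly on the same arrays. At day 1, 15 of 15 pan-leukocyte markers (log2 ratio 2.22 to 8.17) and 15 of 15 granulocyte markers (4.07 to 7.97) were at least 2-fold higher, and, of 9 erythroid markers that could be read, 7 were lower by 2-fold or more (-5.77 to 3.92 over the 9), with Nfe2 the exception on the high side. At day 3, 9 of 10 erythroid markers were at least 2-fold lower (-6.73 to -0.78), 0 of 11 pan-leukocyte markers were higher and 3 lower, and of 11 granulocyte markers 1 was higher and 6 lower (-3.19 to 1.99). Endothelial markers were at least 2-fold higher in 3 of 13 cases at day 1 and in 13 of 13 at day 3. Over the whole array, the share past 2-fold on the high side was 19.6% at day 1 and 7.35% at day 3. On the low side the share was 11.1% at day 1 and 6.85% at day 3. The day 1 count of endothelial markers lies near the share on the high side, so nothing particular to them is read from it. The median mesenchymal marker was at -0.92 at day 1 (15 genes) and at -0.08 at day 3 (16 genes). The part of these differences in the family's ratios was not tested. In such mixed RNA, fewer cells of a type and less RNA per cell cannot be told apart.

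At day 1 most E2F genes stood below the array median and the pocket protein genes near it. Of the 9 members with a ratio, 1 was at least 2-fold higher (E2f3) and 3 were at least 2-fold lower (E2f2, E2f4 and E2f5), where 19.6% of all 10434 genes were higher and 11.1% lower, or 30.7% in all. The 3 low calls were all lost with ribosomal protein genes at 0 (E2f2 -0.74, E2f4 -0.93 and E2f5 -0.71). The median member was at -0.74, and 8 of 9 were below 0, or 5 of 9 with ribosomal protein genes at 0. At day 3, 0 of 9 members were higher by 2-fold or more and 2 were lower (E2f1 and E2f4), where 7.35% of 11404 genes were higher and 6.85% lower, or 14.2% in all. The median was -0.55, with 7 of 9 below 0, and with ribosomal protein genes at 0 it turned to 0.01, with 4 of 9 below 0. With so few members these shares are counts of single genes, and nothing particular to the family is read from them.

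**Figure D1:**
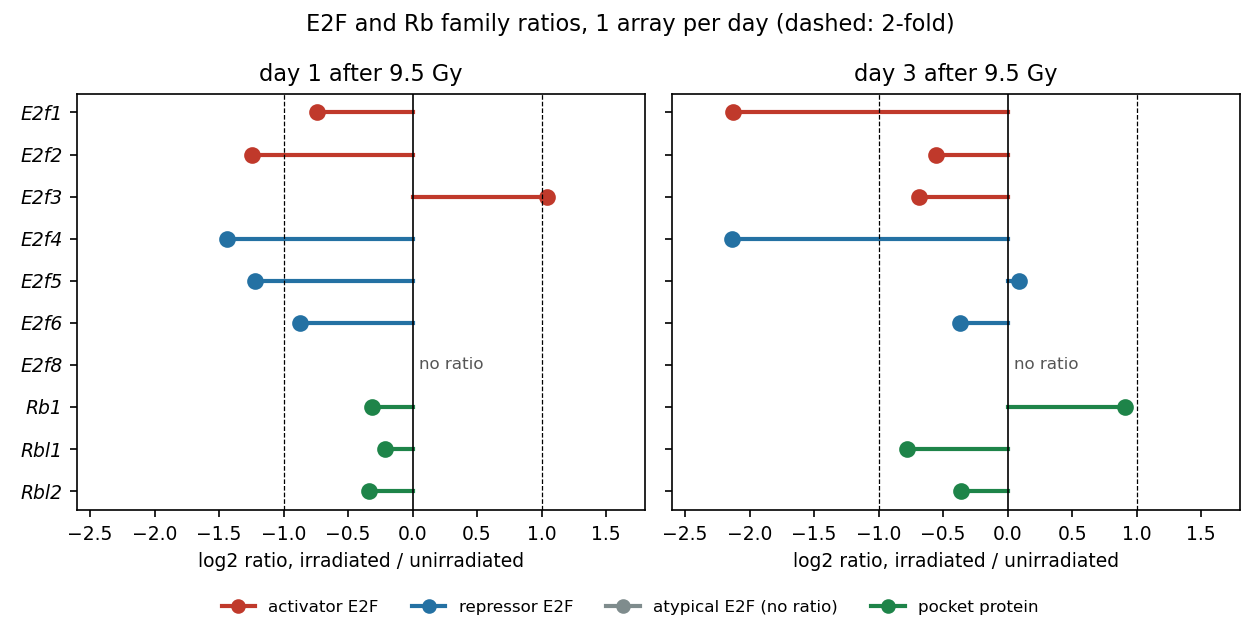
Log2 ratio of irradiated over unirradiated RNA (x axis) for each E2F and Rb family gene (rows, coloured by role) at day 1 (left) and day 3 (right), 1 array each and no error bars. E2f4 lies beyond 2-fold on the low side in both panels (-1.44 and -2.14), E2f3 lies at 1.04 on the left and -0.69 on the right, and Rb1 is highest on the right at 0.91.

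Among the activators, E2f1 had a log2 ratio of -0.74 at day 1 and -2.13 at day 3. It was thus 1.67-fold lower at day 1, within the 2-fold limit, and 4.38-fold lower at day 3, where it ranked 137th from the bottom of 11404 genes. The E2f1 protein drives entry into S phase and can also promote apoptosis after DNA damage. E2f2 went the other way in time, at -1.25 at day 1 (2.38-fold lower) and -0.55 at day 3 (1.47-fold lower). E2f3 was the only member at least 2-fold higher on either array, at 1.04 on day 1, or 2.06-fold. It lay past the limit by much less than the probe SD of 0.76. At day 3 E2f3 stood at -0.69, or 1.61-fold lower. All 3 activators were therefore below 0 at day 3, E2f1 alone beyond 2-fold, although E2f2 moved to 0.01 when ribosomal protein genes were set to 0.

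Among the repressors, E2f4 was low at both times. Its log2 ratio was -1.44 at day 1, which is 2.70-fold lower and at percentile 4.35 of all genes, and -2.14 at day 3, which is 4.40-fold lower and at percentile 1.18. E2f4 had the lowest value of the family at both times, but at day 1 E2f1, E2f2, E2f5 and E2f6 lay within the probe SD of it. At day 3 it ranked 135th from the bottom of 11404 genes, close to E2f1, and the 2 genes differed by less than the probe SD. E2f5, which like E2f4 pairs with Rbl-type pocket proteins, stood at -1.22 at day 1 (2.33-fold lower) and at 0.09 at day 3. E2f6, the Polycomb-linked repressor, stood at -0.87 at day 1 and -0.37 at day 3, within 2-fold both times. The day 3 value of E2f6 turned to 0.20 with ribosomal protein genes at 0.

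E2f4 and E2f2 are known to matter in the erythroid lineage, and most erythroid markers with a ratio were low on both arrays. E2f4 was past 2-fold on the low side on both, but E2f2 only at day 1. Both day 1 calls were lost with ribosomal protein genes at 0 (E2f4 -0.93 and E2f2 -0.74), while E2f4 at day 3 was still past 2-fold (-1.57). At day 3 E2f2 stood at -0.55, or at 0.01 with ribosomal protein genes at 0. Nfe2, also on the erythroid list, was at 3.92 at day 1, without a ratio at day 3. Gata1, the erythroid master regulator, was at -4.06 at day 1 and -3.85 at day 3, and the erythropoietin receptor gene Epor at -2.80 and -1.79. Tfrc, the transferrin receptor gene, which dividing cells of other types use too, was at -0.68 and -1.25. The red cell genes Car2 (-5.77 and -6.73), Hemgn (-4.80 and -5.19) and Gfi1b (-4.09 and -4.56) were low at both times too. From day 1 to day 3 the erythroid list held genes that stood lower, like E2f4, and genes that stood closer to 0, like E2f2, with a median difference of -0.09 over 8 genes. The part of red cell precursors in the ratios of E2f4 and E2f2 was not tested.

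The pocket protein genes were close to the array median at day 1, with Rb1 at -0.32, Rbl1 at -0.22 and Rbl2 at -0.34. These 3 values span less than the probe SD and do not order the genes, and all 3 turned positive (0.17 to 0.29) with ribosomal protein genes at 0. At day 3 they spread out. Rb1 was at 0.91, or 1.88-fold higher and at percentile 91.2 of all genes, just within 2-fold. Rbl1, which cells make mainly while they cycle, was at -0.78, or 1.72-fold lower and at percentile 11.1. Rbl2, the pocket protein gene of resting cells, was at -0.36, close to its day 1 value, and at 0.21 with ribosomal protein genes at 0.

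**Figure D2:**
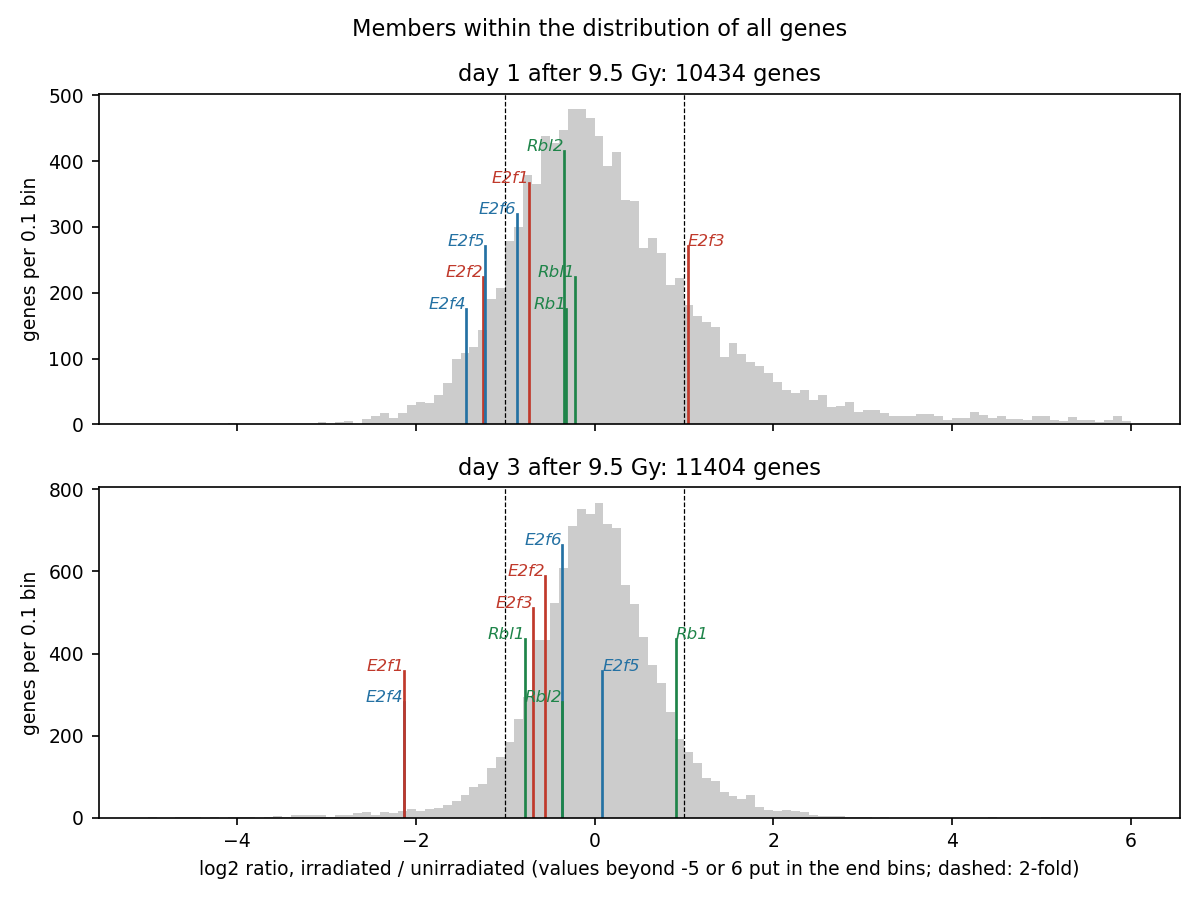
Number of genes (y axis) in bins of 0.1 of the log2 ratio (x axis) at day 1 (top, 10434 genes) and day 3 (bottom, 11404 genes), with vertical lines at the family members; line heights only separate the labels. At day 1 E2f4 sits at percentile 4.35, and at day 3 E2f1 and E2f4 share 1 position in the low tail, at percentiles 1.20 and 1.18.

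Both arrays used unirradiated RNA, possibly the same extract, so the difference between the days carries whatever that RNA contributed to each. From day 1 to day 3, 2 of 9 members differed by at least 2-fold upwards and 2 downwards, where 12.1% of 9800 genes measured on both arrays were higher and 16.8% lower, or 28.9% in all. E2f5 (1.31) and Rb1 (1.23) were higher at day 3 relative to day 1, and E2f3 (-1.74) and E2f1 (-1.39) lower. E2f2 differed by 0.69, E2f6 by 0.50, Rbl1 by -0.56, E2f4 by -0.70 and Rbl2 by -0.02, all within 2-fold. These last 5 values are smaller than the probe SD of a difference between the arrays, which is 0.95 when both SDs are combined as if independent. That SD was not measured on differences, and each member was read by the same probe on both arrays, so it may be too wide.

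In the plane of the day 1 and day 3 ratios, the genes closest to a member were ranked by Euclidean distance among the 9800 genes, for the 2 members farthest from 0. The nearest to E2f1 were Gins2 (-0.73 at day 1 and -2.10 at day 3, distance 0.03), Chek1 (-0.77 and -2.20, distance 0.07) and Pola1 (-0.77 and -2.04, distance 0.10). The nearest to E2f4 were Asns (-1.35 and -2.06, distance 0.12), Rfc4 (-1.30 and -2.22, distance 0.15) and Cnnm3 (-1.34 and -2.01, distance 0.16). Likeness over 2 arrays is a weak measure, since many genes share any pair of values.

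Several E2F genes are themselves known E2F targets, so the promoter windows of the family were searched for E2F words, and the stretches that hold one are printed here. Windows ran from 250 bases before to 50 bases after a gene's start in RefSeq (GRCm38.p6) and were given for 7 of the 10 members; E2f4, E2f5 and Rb1 had none. The words were TTTCCCGC, TTTCCCGG, TTTCGCGC, TTTCGCGG, TTTGCCGC, TTTGCCGG, TTTGGCGC and TTTGGCGG, read on both strands, and words may overlap. A word occurred in 3 of the 7 members, E2f2, E2f3 and Rbl1, and in 8.17% of the 9642 genes with a ratio and a window. The starts used for E2f1 and E2f8 lie 466 and 477 bases inside the 5′ end of the annotated gene, so their windows do not show the sequence at that end. The DP partner gene Tfdp1 and the replication helicase gene Mcm5 are printed for comparison; in Mcm5 a pair of words on opposite strands overlaps. Each stretch has 30 bases and reads 5′ to 3′ on the strand of its gene, with the words in capitals: E2f2 is chr4:136172294-136172323 on the plus strand, E2f3 chr13:29986049-29986078 on the minus strand, Rbl1 chr2:157204534-157204563 on the minus strand, Tfdp1 chr8:13338697-13338726 on the plus strand and Mcm5 chr8:75109347-75109376 on the plus strand.
E2f2: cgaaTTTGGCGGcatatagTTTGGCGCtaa
E2f3: gccgGCGGGAAAtctgagTTTCGCGGgagg
Rbl1: aagaaggcgatTTTCGCGCgctttgtcgcg
Tfdp1: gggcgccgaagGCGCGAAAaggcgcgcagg
Mcm5: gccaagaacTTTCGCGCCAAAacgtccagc
The E2f2 words lie at bases 25 to 32 and 40 to 47 after the start, those of E2f3 at -11 to -4 and 4 to 11, and that of Rbl1 at -18 to -11. The 3 members with a word had ratios of -1.25 (E2f2), 1.04 (E2f3) and -0.22 (Rbl1) at day 1 and of -0.55, -0.69 and -0.78 at day 3, so they lay on both sides of 0 at day 1 and below it at day 3. A word is a match of letters and does not show that an E2F binds there.

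The DP partners had few ratios. Tfdp1, the main DP partner, stood at 1.11 at day 1 (2.15-fold higher) and -0.82 at day 3 (1.77-fold lower), on the same side of 0 as E2f3 at each time. Tfdp2 had a ratio only at day 3, at -0.36. E2f7, the other atypical E2F, had none on either array, like E2f8. Of all named genes, 36.3% had no ratio at day 1 and 30.4% none at day 3, and no source used here gives the filter behind this.

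Of the cyclin and kinase genes that act on pocket proteins, 2 of 8 were at least 2-fold higher and 1 lower at day 1, and 1 of 9 higher and 3 lower at day 3. Of all genes, 19.6% were higher and 11.1% lower at day 1, and 7.35% and 6.85% at day 3. The day 1 counts of the cyclin and kinase genes lie near these shares. The cyclin and kinase genes past 2-fold on the high side at day 1 were Ccnd3 and Cdc25a (1.17), a phosphatase that activates the kinases. The A and E cyclin genes, known E2F targets, were the 3 at least 2-fold lower at day 3, with Ccna2 at -4.50 (22.7-fold lower), Ccne2 at -3.11 and Ccne1 at -2.61. Their day 1 values were -0.57 for Ccna2 and -0.21 for Ccne2, with no ratio for Ccne1. The D cyclin genes, which answer to growth signals, were not past 2-fold on the low side, with Ccnd3 at 1.53 at day 1 and -0.34 at day 3, and Ccnd2 at 0.67 and 1.07. The partner kinase gene Cdk4 stood at -1.29 and -0.91, Cdk6 at -0.82 and 0.05, and Cdk2 at 0.82 and -0.10. Among the kinase inhibitors, Cdkn1a was 4.68-fold higher at day 1 (2.23) and 3.72-fold higher at day 3 (1.90), Cdkn1c was at -1.71 and -0.67, and Cdkn2c at -0.21 and -0.16. Cdkn2a had a ratio only at day 3, at 0.86. Cdkn1a is in the p53 list that set the direction and is no independent evidence of its own. Of the inhibitors, 3 had a ratio at day 1, with 1 past 2-fold in each direction, and 4 at day 3, with 1 higher and 0 lower.

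**Figure D3:**
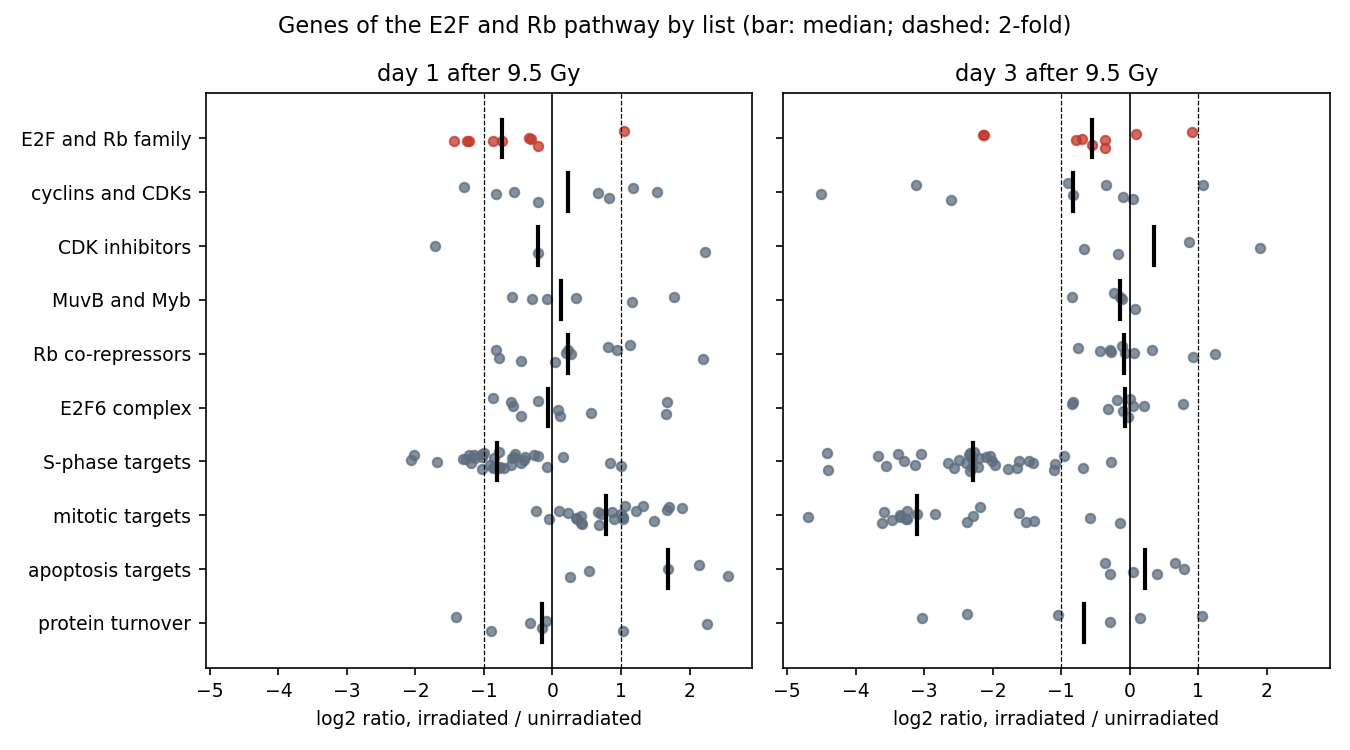
Log2 ratio of irradiated over unirradiated RNA (x axis) for single genes (points) of the family (red) and of 9 pathway lists (grey) at day 1 (left) and day 3 (right), with the list median as a black bar. The S-phase and mitotic target medians lie on opposite sides of 0 at day 1 (-0.81 and 0.79) and both far below it at day 3 (-2.29 and -3.10), while the co-repressor and E2F6 complex medians stay near 0.

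The target genes of E2F were split by phase at day 1 and low together at day 3. Among the 34 measured S-phase targets, 13 were lower and 1 higher by 2-fold or more at day 1, with a median of -0.81, and 31 of 34 were lower and 0 higher at day 3, with a median of -2.29. Over all genes, 11.1% were lower and 19.6% higher at day 1, and 6.85% and 7.35% at day 3. Mcm5 was at -0.85 and -4.42, the thymidine kinase gene Tk1 at -2.02 and -4.40, the ribonucleotide reductase gene Rrm2 at -1.03 and -3.38, and the origin loading gene Cdc6 at -0.85 and -2.30. Nasp, a histone chaperone gene, was at -0.27 at both times, and Dbf4, which activates the Cdc7 kinase, at 1.00 and -1.10. The day 1 count of lower genes depended on the 0 point, being 7 with the density peak and 3 with ribosomal protein genes at 0. E2f1 lay inside the range of the S-phase targets on both arrays, 0.08 above their median at day 1 and 0.15 above it at day 3. This is not particular to E2f1, since E2f6 at day 1 (-0.87) and E2f4 at day 3 (-2.14) lay at least as close to those medians. In their promoter windows, 14 of 31 S-phase targets held an E2F word, against 8.17% of the 9642 genes with a ratio and a window. Not all starts used match the 5′ end of the annotated gene: that of Rrm2 lies at it, but that of Cdc6 442 bases inside.

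Mitotic genes, which the DREAM complex represses in quiescent cells, stood mostly above 0 at day 1. Of 24 with a ratio, 10 were at least 2-fold higher and 0 lower, with a median of 0.79, and of 19 at day 3, 17 were lower and 0 higher, with a median of -3.10. For these mitotic genes and the MuvB group below, the shares over all genes were 19.6% higher and 11.1% lower at day 1. At day 3 they were 7.35% and 6.85%. The proliferation marker Mki67 stood at 1.32 and -3.61, the survivin gene Birc5 at -0.05 and -4.70, and the centromeric histone gene Cenpa at 0.42 and -3.58. Kif23 (1.90) and Cdca8 (1.70), both past 2-fold on the high side, had a ratio only at day 1. The high count of day 1 thus rests partly on mitotic genes that are missing at day 3. With only genes on both arrays that count was 7, with a median of 0.76, and the low count of day 3 stayed at 17. E2f3 and Tfdp1 were the genes of the family and its DP partners that lay above 0 at day 1 with these mitotic genes. The mitotic list served to set the direction of the ratio. Of the MuvB group, Lin54 (1.77) and Lin9 (1.17), DNA-binding and core subunits, were at least 2-fold higher at day 1, out of 6, and 0 of 5 were past 2-fold at day 3, with Lin54 at -0.24, Lin9 at 0.08, the histone-binding subunit gene Rbbp4 at -0.84 and Mybl1 at -0.15. Mybl2, the Myb protein of cycling cells, was at -0.08 at day 1 without a day 3 value.

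The partners through which pocket proteins and E2F6 repress were mostly within 2-fold. The counts of these lists stand beside the 19.6% of all genes that were higher and the 11.1% lower at day 1, and the 7.35% and 6.85% at day 3. Of 11 Rb co-repressor genes at day 1, 2 were at least 2-fold higher and 0 lower (4 were higher under either of the other 0 points, density peak or ribosomal), namely Arid4a (2.20), which binds the Rb protein, and the histone methyltransferase gene Suv39h1 (1.14). At day 3, 1 of 10 was higher, the histone methyltransferase gene Kmt5b (1.24), and 0 lower, with Arid4a at 0.92, Rbbp7 at -0.44 and the deacetylase gene Hdac3 at -0.29. All 10 genes of the E2F6 Polycomb complex had ratios on both arrays. At day 1 Max (1.66), the partner of Myc, and Yaf2 (1.66) were at least 2-fold higher and 0 of 10 lower, and at day 3 all 10 were within 2-fold, from -0.85 for Wdr5 and -0.83 for Cbx3 to 0.77 for Yaf2. Of the genes that control the stability of E2F and pocket pathway proteins, 2 of 7 were higher and 1 lower by 2-fold or more at day 1, and 1 of 6 higher and 3 lower at day 3. Among them Skp2, a ubiquitin ligase subunit, stood at -0.90 and -1.04, Fbxo5, an inhibitor of the anaphase-promoting complex, at -1.41 and -3.03, and Mdm2, the p53 ubiquitin ligase, at 2.26 and 1.06, while Cdc20, which activates that complex, was at 1.03 and -2.37. Uhrf2 was at -0.33 at day 1 and 0.16 at day 3. Mdm2 is in the p53 list and Cdc20 in the mitotic list, which set the direction, so these 2 genes, the ones called higher at day 1, are no independent evidence of their own. Of E2F-linked apoptosis genes, 3 of 5 were at least 2-fold higher at day 1, namely Apaf1 (2.56), the scaffold of the apoptosome, Casp8 (2.14) and Bid (1.68), with Casp9 at 0.26. At day 3, 0 of 6 were past 2-fold, with Apaf1 at -0.36, Casp8 at 0.66 and Bcl2l11, which had no day 1 ratio, at 0.05. The day 1 values come from the array on which 15 of 15 pan-leukocyte markers were at least 2-fold higher.

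The choice of the 0 point changed several of the family's signs and calls. Setting the density peak of all genes to 0 raised every value by 0.19 at day 1 and by less than 0.01 at day 3, and setting ribosomal protein genes to 0 raised them by 0.51 and 0.57. E2f1, E2f2, E2f4, E2f5 and E2f6 stayed below 0 and E2f3 above it at day 1 under each of these choices, and at day 3 E2f1 (-1.57) and E2f4 (-1.57) were still at least 2-fold lower with ribosomal protein genes at 0. Under that choice Rb1 passed 2-fold at day 3, at 1.48. Among all genes past 2-fold, the share that was higher was 63.9% at day 1, 76.0% with the density peak at 0 and 89.9% with ribosomal protein genes at 0. At day 3 it was 51.8%, against 91.2% with ribosomal protein genes at 0. For the difference between the days it was 41.8%, against 28.4% with the density peak at 0.

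**Figure D4:**
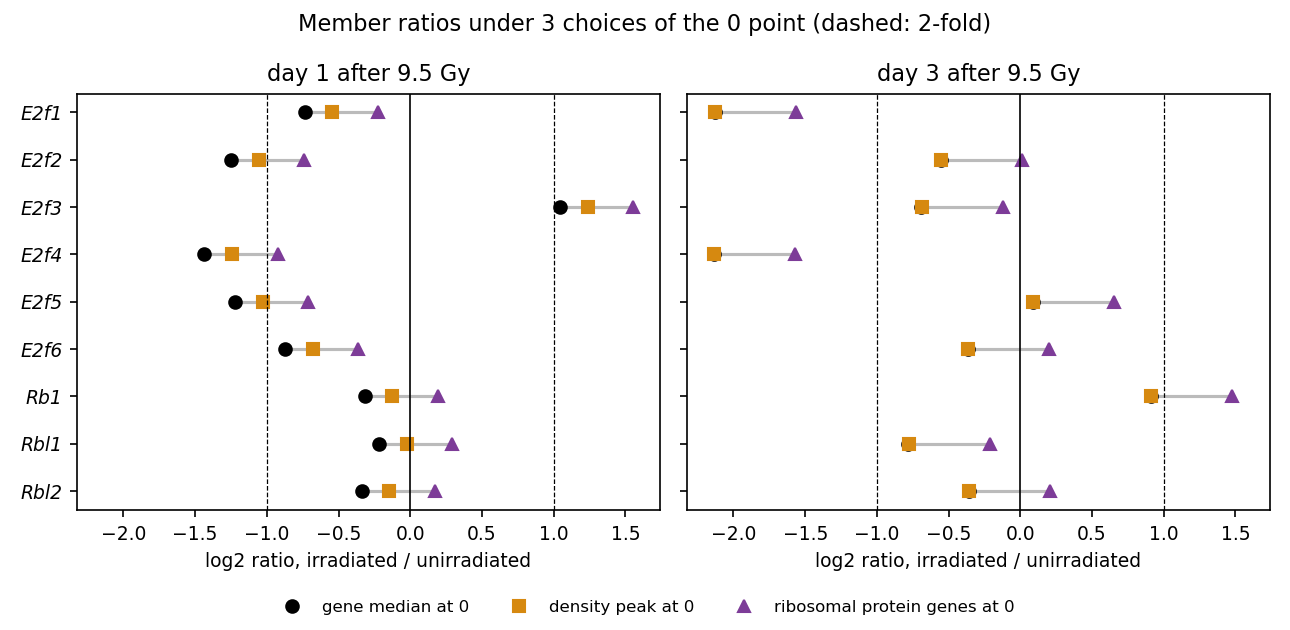
Log2 ratio of irradiated over unirradiated RNA (x axis) of the 9 measured members (rows) at day 1 (left) and day 3 (right), with the median gene (circles), the density peak (squares) or ribosomal protein genes (triangles) at 0. At day 3 E2f1 and E2f4 lie beyond 2-fold under all 3 choices, and at day 1 the pocket protein genes lie on either side of 0 depending on the choice.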

How the data were processed

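The deposited table holds, for every probe and array, the authors' log ratio between both channels, read here as log2; the base of the logarithm, the numerator, scanner, background subtraction, normalisation and filter are not given in the sources used here. Per the labels, total RNA was isolated with an RNeasy kit and amplified into amino allyl RNA for coupling to the dyes. As deposited, the values lay centred on 0, with medians of 0.00035 (day 1) and -0.00013 (day 3). Of 23473 probes, 16631 had a platform symbol. Symbols were updated through RefSeq genes (GRCm38.p6): 12622 were current, 3947 matched 1 gene by an older name, and 59 ambiguous and 3 unmatched symbols were kept. All 10 members carried their current symbol.

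Probes of a gene were averaged and the gene median of each array (-0.0119 and 0.0162) subtracted, with Python 3.11.15 and pandas 2.3.3. A gene was called past 2-fold at a log2 ratio of size 1 or more. There is no replicate, hence no test, and the precision is limited by having 2 arrays in all. The centring, the size rule and the promoter word search were run on simulated data as a check of the code. The simulated ratios had less spread than the probes here, and words were planted in sequences of only A and T. The check therefore gives no error rate for these data. Members and gene lists were chosen with earlier results of these data known. Named genes were the members, the 2 highest and 2 lowest of each pathway list by mean ratio, a fixed set, and the 3 genes nearest to each of the 2 members farthest from 0; Cdc25a, Ccne2, Cdc20, Bid, Kmt5b and the markers were named after their values were seen. Ccnd1, Ccnb1 and Foxm1 of the fixed set had no named probe. Alternatives were 3 other 0 points, only genes on both arrays, the probe nearest to 0, unaltered symbols, and limits of 1.5-fold and 3-fold.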

Additional observations from a re-analysis of the deposited data

Results flagged for a closer look

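Some genes lay on opposite sides of 0 at day 1 and day 3 and differed by at least 2-fold between the days. With 1 array per time point the difference was not tested in any of them. Among family members, E2f3 was at 1.04 at day 1 and -0.69 at day 3, a difference of -1.74 (log2, day 3 minus day 1). E2f5 was at -1.22 and 0.09, a difference of 1.31, and Rb1 at -0.32 and 0.91, a difference of 1.23, with the day 1 sign of Rb1 depending on the 0 point. The DP partner gene Tfdp1 differed by -1.93, the D cyclin gene Ccnd3 by -1.87, the MuvB subunit gene Lin54 by -2.00, the Cdc7 activator gene Dbf4 by -2.10 and the apoptosome gene Apaf1 by -2.92. Setting ribosomal protein genes to 0 raised day 3 values by 0.57. Ccnd3 (-0.34), Lin54 (-0.24) and Apaf1 (-0.36) lay closer to 0 than this at day 3, so their day 3 sign depends on the 0 point. E2f3 stayed below 0 at day 3 under that choice, at -0.12. The mitotic genes Cenpa and Mki67 differed by -4.00 and -4.93.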

How the results depend on the processing

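No paired analysis was possible because each time point has 1 array and the labels number no replicates. With a 3-fold limit, 0 members were higher and 0 lower at day 1, and for day 3 minus day 1, 0 were higher and 1 lower. With a 1.5-fold limit, 5 members were lower at day 1, and 1 was higher and 4 lower at day 3. With ribosomal protein genes at 0, 0 members were lower at day 1 and 1 was higher at day 3. The other 51 alternative values of the family's counts and medians stayed within 1.5 times the count or within 1 SD between probes. A new 0 point shifted values by at most 0.51 at day 1 and 0.57 at day 3, less than the probe SDs of 0.76 and 0.58. It therefore could not move a median or a member's value by 1 SD. The day 3 median, which was not past 2-fold, still turned from -0.55 to 0.01 with ribosomal protein genes at 0. No called value of a member or list changed sign under any alternative run. Of 646 alternative values of single members and pathway lists, 49 counts moved by more than 1.5 times. The cause was not tested, except that the size limits change the counts by construction and the 0 point shifts all genes of an array together. Signal over background is unknown, each member rests on 1 probe, and values near 2-fold, such as E2f3 at day 1 and Rb1 at day 3, lie closer to the limit than the spread between probes.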

Other observations

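Genes with an E2F word in the promoter window were compared with those without, across the whole array. Some starts used lie inside the annotated gene, so a window without a word may miss the sequence at the 5′ end of that gene. At day 1, 11.2% of 712 genes with a word and 10.9% of 7666 without were at least 2-fold lower, with medians of -0.06 and 0.01. At day 3, 10.7% of 766 genes with a word and 6.46% of 8385 without were at least 2-fold lower, with medians of -0.10 and -0.0032. Among the S-phase targets, 3 of 13 genes with a word and 8 of 17 without were at least 2-fold lower at day 1, with medians of -0.77 and -0.91, and 13 of 13 genes with a word and 14 of 17 without were at least 2-fold lower at day 3, with medians of -2.31 and -2.22. Of 11 germ cell genes that E2F6 keeps silent in somatic cells, 9 have a named probe; ratios were given for 1 at day 1 (Ddx4, -0.07) and for 2 at day 3 (Ddx4, -0.43, and Tdrkh, -0.39).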
